A study of Homo sapiens with 2 samples.

Results

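CD44 is 1 of the 19775 genes named on the array and was represented by 13 of its 54675 probe sets, taken as every probe set whose platform gene symbol is exactly CD44. The gene was chosen because these probe sets were already known to disagree in direction, so its values are a description. RNA came from HCT116, an established human colorectal carcinoma line. A control siRNA was given to one culture and siRNAs to both JMJD1A and JMJD1B to the other. The genes are now called KDM3A and KDM3B and encode demethylases of histone H3 lysine 9. RNA was taken 2 days after transfection. Each condition had 1 array, so no value carries a replicate error, no test was possible, and each difference is one between these samples. The siRNA sequences were not used here.

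CD44 is a transmembrane glycoprotein that binds hyaluronan, a large sugar polymer of the extracellular matrix. Its cytoplasmic tail links to the actin cytoskeleton through ezrin, radixin and moesin. The transcript has constant exons at both ends and a block of variable exons between them, which are included or skipped by alternative splicing. In the intestine CD44 is known as a target gene of Wnt/beta-catenin signalling and as a surface marker of crypt and colorectal tumour cells.

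Most CD44 probe sets with strong signal read higher after the JMJD1A/JMJD1B siRNAs, and 1 was lower by about the same factor. Of the 7 probe sets with a mean signal of 1000 or more, 6 were higher, by 1.61-fold to 2.60-fold, and 212063_at was 2.06-fold lower. Of all 13 probe sets, 11 reached the signal filter, set at 50.4, the median signal over non-control probe sets. Among these 11, 8 had a log2 ratio (JMJD1A/JMJD1B siRNA minus control) above 0 and 3 below 0, against 49.7% and 50.3% of the 23360 measured probe sets with 1 gene symbol. A 2-fold difference was reached by 4 of the 11 upward and by 1 downward, against 8.88% and 10.4% of those probe sets. After loess or quantile normalization 3 were left upward, since 212014_x_at then stood at 0.96 and 0.97 on the log2 scale. Nothing is read from these shares, because the gene was chosen from this contrast and its probe sets report one gene. The median log2 ratio of the 11 was 0.69, beside -0.0048 over all measured probe sets with 1 symbol.

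**Figure D1:**
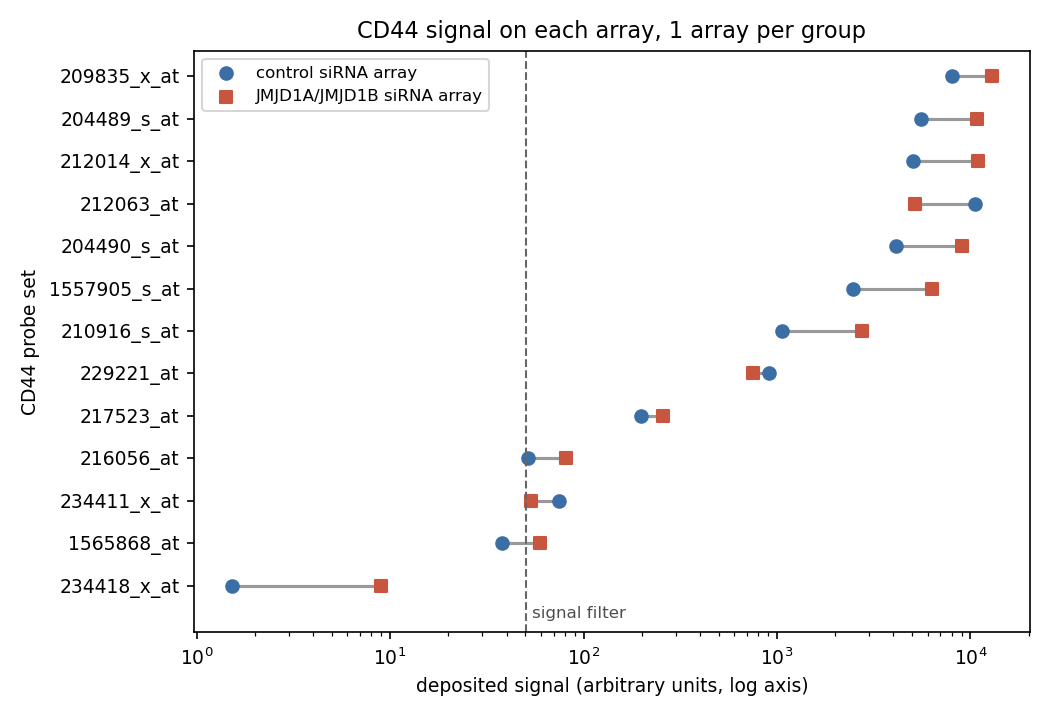
Deposited signal (arbitrary units, log axis) of the 13 CD44 probe sets on the control array (circles) and the JMJD1A/JMJD1B siRNA array (squares), 1 array per group, ordered by mean log2 signal, with the filter of 50.4 as a dashed line. In the 7 uppermost probe sets the square lies to the right of the circle except for 212063_at, which read 10609 on the control array and 5144 on the other.

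The 4 probe sets with the suffix _s_at, which marks probes shared by several transcripts of a gene or gene family, gave the most even picture. Probe set 210916_s_at read 1063 on the control array and 2762 after the JMJD1A/JMJD1B siRNAs, a log2 ratio of 1.38. Probe set 1557905_s_at read 2470 and 6365, a log2 ratio of 1.37. Both were thus about 2.6-fold higher on the array of cells given the JMJD1A/JMJD1B siRNAs. Probe set 204490_s_at read 4127 and 8999, a log2 ratio of 1.12. Probe set 204489_s_at read 5561 and 10872, a log2 ratio of 0.97, just short of 2-fold. All 4 ratios lay within 0.41 of each other, with an SD of 0.20 among these probe sets, which describes agreement within the arrays and not between samples.

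The suffix _x_at marks probe sets in which some probes also match other sequences, and the 4 CD44 probe sets of this kind were spread widely. Probe set 212014_x_at read 5057 on the control array and 10901 after the JMJD1A/JMJD1B siRNAs, a log2 ratio of 1.11. Probe set 209835_x_at, the brightest by its mean over both arrays, read 7995 and 12887, a log2 ratio of 0.69. Both agreed in direction with the _s_at probe sets. The remaining pair was designed from 1 shared source sequence, by the platform annotation, and was dim. Of this pair 234411_x_at read 74.4 and 53.4, a log2 ratio of -0.48, while 234418_x_at read 1.53 and 8.97, under the filter on both arrays, so no fold is given for it.

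The 5 probe sets with the plain suffix _at, designed to match a single transcript, did not share the higher reading as a group. Probe set 212063_at read 10609 on the control array, the highest control signal of all 13, and 5144 after the JMJD1A/JMJD1B siRNAs, which left 48.5% of the control signal and a log2 ratio of -1.04. Probe set 229221_at read 910 and 750, a log2 ratio of -0.28. Probe set 217523_at read 199 and 258, a log2 ratio of 0.38. These last 2 ratios lay within 0.54, the SD of log2 ratios between probe sets of a gene, estimated from the 2 brightest probe sets of 6192 genes. Probe set 216056_at was near the filter at 51.7 and 81.6 (0.66), and 1565868_at lay under it on the control array, at 37.7 and 59.8. None of the 4 measured _at probe sets was 2-fold higher, whereas 3 of 4 _s_at and 1 of 3 measured _x_at probe sets were. Of the 4 measured CD44 probe sets with a mean signal under 1000, whatever their suffix, 0 were 2-fold higher.

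Shares by suffix over the whole array are given as background. Over all measured probe sets with 1 symbol, 9.13% of _at, 8.52% of _s_at and 7.91% of _x_at probe sets were higher by 2-fold or more. At high signal CD44 itself has 1 _at, 4 _s_at and 2 _x_at probe sets, so in CD44 suffix and brightness cannot be told apart. Among measured probe sets with 1 symbol and a signal of 1000 or more, 7.24% of 3536 _at, 7.46% of 2896 _s_at and 6.31% of 681 _x_at probe sets were higher by 2-fold or more. In the lower direction the shares were 9.36%, 7.22% and 5.29%. Over all 7183 probe sets of that brightness, the several-transcript type with suffix _a_at included, 7.28% were higher by 2-fold or more and 8.06% lower by 2-fold or more. The median log2 ratio at that brightness was -0.0039 for _at, 0.03 for _s_at and 0.19 for _x_at probe sets. Which CD44 exons each probe set covers was not analysed here, so the part of exon choice, of transcript ends and of probe behaviour in the disagreement was not tested.

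The other 6 bright CD44 probe sets stood well above 212063_at, the disagreement for which the gene was chosen. Their log2 ratios exceeded that of 212063_at by 1.73 (209835_x_at) to 2.42 (210916_s_at), which is a factor of 3.32 to 5.36 between the ratios. The 2 brightest CD44 probe sets, 209835_x_at and 204489_s_at, differed by 0.28. Over 1453 genes whose 2 brightest probe sets both had a signal of 1000 or more, the scatter between that pair corresponded to an SD of 0.38 per log2 ratio. Leaving out 212063_at, picked as the only lower one, the 6 remaining bright probe sets had a mean log2 ratio of 1.11 and an SD of 0.26. That choice removes the disagreement itself, so this SD is no measure of how well the CD44 probe sets agree.

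Genes other than CD44 with 2-fold differences in both directions at high signal were counted as a description. Among 1452 other genes with 2 or more probe sets of signal 1000 or more, 3 had at least 1 such probe set 2-fold higher and another 2-fold lower. CD44 had 7 such probe sets, and a gene with more of them has more room for both directions. Of other genes with 3 or more, it was 3 of 414 (0.72%), and with 5 or more 0 of only 29. The 3 genes were named after their values were seen. HNRNPD, which encodes an RNA-binding protein that acts on AU-rich elements, spanned -1.20 to 1.49 over 4 bright probe sets. NUDT21, a subunit of the cleavage factor that helps choose polyadenylation sites, spanned -1.31 to 1.38 over 3. PNN, encoding pinin, a protein of desmosomes and of nuclear splicing complexes, spanned -1.64 to 1.06 over 4.

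The spread over all measured probe sets was set beside that of other genes in the same way. Of 437 genes with 5 or more measured probe sets, CD44 ranked 81 by the SD of the log2 ratio over its probe sets, at 0.81, and 356 of the 436 others (81.7%) had a smaller SD. The median of those others was 0.51. CD44 had 11 measured probe sets, a number that 5 genes on the array, CD44 included, reached or passed. Its ratios covered a range of 2.42, beside a median range of 1.30 in the others. Among the other 436 genes, 307 (70.4%) had probe sets on both sides of 0, but only 21 (4.82%) had a 2-fold higher and a 2-fold lower one. In the smaller set of 20 genes with 8 or more measured probe sets, 4 had both, and 8 had a range of 2.42 or more. CD44 itself is counted in each of these numbers.

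**Figure D2:**
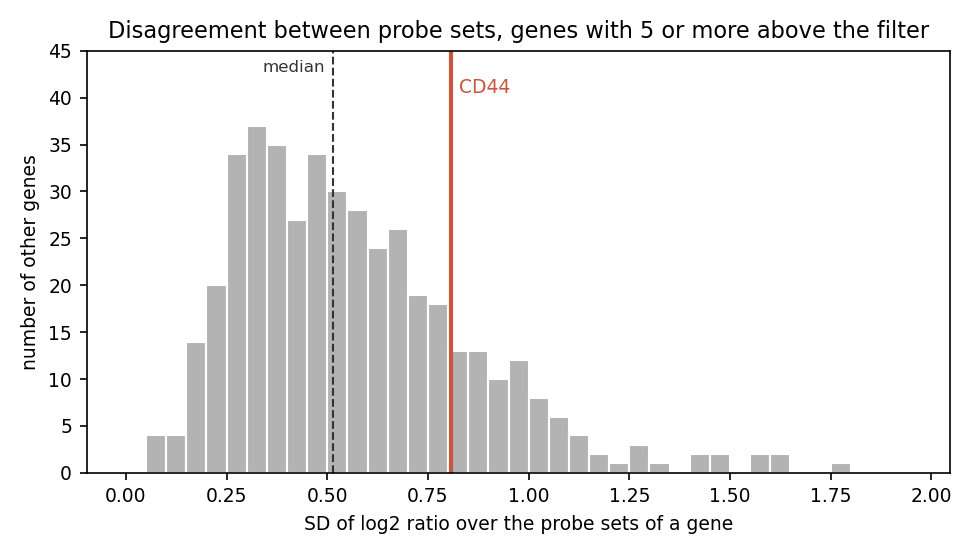
Number of other genes (vertical axis) by the SD of the log2 ratio over the probe sets of a gene (horizontal axis, bins of 0.05), for the 436 genes other than CD44 with 5 or more probe sets above the filter. CD44 is the solid line at 0.81 and the median of the others the dashed line at 0.51, so CD44 lies in the upper part of the distribution but inside it.

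The 5 genes whose SD was nearest to that of CD44 over these probe sets were SREK1, DMAC2L, SIKE1, ENAH and N4BP2L2, each with an SD of 0.81 over 5 or 6 measured probe sets. SREK1, a splicing regulator, spanned log2 ratios of -0.53 to 1.36. ENAH, an actin regulator, spanned -0.89 to 1.11. N4BP2L2 spanned -1.12 to 1.14 and was the only one of the 5 with a 2-fold probe set in each direction. DMAC2L spanned -0.30 to 1.89 and SIKE1 -0.87 to 1.19. This likeness is one of spread over probe sets on 2 arrays and carries no statement about shared control.

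The 6 higher bright probe sets stayed above 0 under each of the 5 scalings run, but their size differed. The 18 hybridization control probe sets, spiked bacterial and phage transcripts, all read higher after the JMJD1A/JMJD1B siRNAs, with a median log2 ratio of 0.61. With the arrays set level on them, those 6 CD44 probe sets stood between 0.08 and 0.77, none of them 2-fold higher, and 212063_at stood at -1.65. On that scale 217523_at turned from 0.38 to -0.23, and 234411_x_at at -1.09 was 2-fold lower as well. Over all measured probe sets with 1 symbol that scale left 2.29% higher by 2-fold or more and 30.4% lower by 2-fold or more, with a median of -0.62. The gaps between CD44 probe sets are the same on either scale, since it subtracts 1 value from all. Under loess, quantile or median scaling each of the 11 measured probe sets kept its sign, and 212063_at lay between -1.21 and -1.13.

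**Figure D3:**
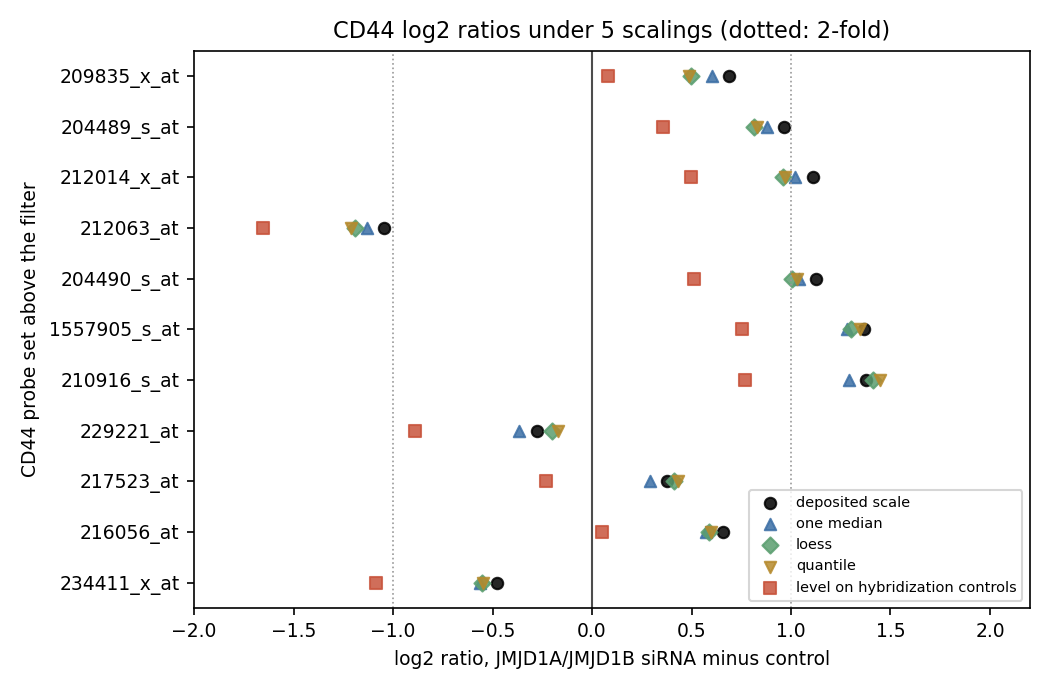
Log2 ratio (JMJD1A/JMJD1B siRNA minus control, horizontal axis) of the 11 CD44 probe sets above the filter under 5 scalings, 1 symbol per scaling, with 2-fold as dotted lines. Squares, level on the hybridization controls, lie 0.61 to the left of the circles of the deposited scale, and 212063_at lies left of the lower 2-fold line under each of the 5.

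The targeted transcripts and the identity of the cells were checked on the same arrays. KDM3B read 3031 on the control array and 496 after the JMJD1A/JMJD1B siRNAs by its brighter probe set. KDM3A read 3884 and 3323, 85.6% of the control signal on the deposited scale, by the only measured one of its 2 probe sets. Level on the hybridization controls, that share for KDM3A would be lower. Of 10 colorectal epithelial markers 8 were measured, with EPCAM, KRT8, KRT18 and KRT19 strong on both arrays, while CDX1 and LGALS4 were under the filter and VIL1 and CDX2 were near it, at 78.2 to 108. The summed signal of the 10 came to 78915 in control cells and 121771 in the others. Of the 8 measured, CDH1, KRT19 and CEACAM5 were higher by 2-fold or more there, against 8.91% of all measured genes. The control signal of CEACAM5, at 38.9, lay under the filter. These values are on the deposited scale, on which the hybridization controls also read higher, with a median log2 ratio of 0.61. No rise of the epithelial markers is therefore read from them. CD44 is also made by leukocytes and fibroblasts, so markers of other cell types were read too, although both samples came from the established line HCT116. In bulk RNA a change in the share of cells with a transcript cannot be told from a change per cell. The leukocyte markers summed to 195 and 204, with PTPRC at 8.22 and 12.4, and the fibroblast markers to 524 and 820, of which COL1A1 alone gave 324 and 631. Endothelial markers summed to 158 and 240. Of the markers with a probe set, only 2 of 7 fibroblast, 2 of 5 leukocyte and 1 of 5 endothelial ones were measured, so nothing is read from these sums.

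The stretch of 250 bases before the annotated start of CD44 is shown because most CD44 probe sets read higher together, with the letters of 2 searched motifs in capitals. It is taken from RefSeq, build GRCh38.p14, chr11:35138921-35139170, plus strand, 5′ to 3′.
CD44: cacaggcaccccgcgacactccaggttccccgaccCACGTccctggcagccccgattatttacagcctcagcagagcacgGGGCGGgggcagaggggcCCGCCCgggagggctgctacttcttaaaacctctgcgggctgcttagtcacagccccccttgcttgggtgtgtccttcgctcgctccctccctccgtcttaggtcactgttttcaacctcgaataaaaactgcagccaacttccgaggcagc
The capitals mark CACGT, the reverse complement of ACGTG, the core letters of a hypoxia response element, and GGGCGG with its reverse complement CCGCCC, the GC box. ACGTG was found once on the reverse strand, as in 18.5% of 35116 promoter stretches of that length searched on both strands, and GGGCGG once on each strand, as in 42.6% holding at least 1. The AP-1 letters TGANTCA, the TCF/LEF core CTTTGA and TATAAA were not in this window, beside shares of 6.57%, 11.2% and 10.7%. None of these motifs overlapped another here. A match of letters is no binding site, and no binding or histone mark was measured.

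Genes around CD44 in its pathway went both ways. The 8 lists held 100 distinct genes, of which 77 were measured by their brightest probe set, 5 of them higher by 2-fold or more and 6 lower by 2-fold or more. Over all 12561 measured genes those shares were 8.91% and 8.53%. The median log2 ratio was 0.15 for the 77 genes and 0.04 for all measured genes. Level on the hybridization controls, 0 of the 77 would be higher by 2-fold or more and 24 lower by 2-fold or more. On that scale the shares over all measured genes were 2.15% and 27.7%.

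Of the ligand's own enzymes, 7 of 11 genes of hyaluronan synthesis and turnover were measured, 2 higher by 2-fold or more and 1 lower by 2-fold or more, with a list median of 0.44. HAS3, a hyaluronan synthase of the plasma membrane, read 4735 and 10280, 2.17-fold higher, although its other measured probe set had a log2 ratio of -0.09. CEMIP2, a cell surface protein linked to hyaluronan breakdown, read 222 and 647, 2.91-fold higher by its only measured probe set. UGDH, which makes the glucuronic acid precursor of hyaluronan, read 3229 and 1195, 2.70-fold lower by its only measured probe set. The synthase and the precursor enzyme thus stood on opposite sides of the control, and on the hybridization control scale neither HAS3 nor CEMIP2 reached 2-fold. HAS3 was also under 2-fold after loess (0.98), after quantile normalization (0.99) and by the mean of its probe sets (0.51), where CEMIP2 stayed past it.

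Among 10 other ligands, 9 were measured, 2 were higher by 2-fold or more and none lower by that much, with a median of 0.56. VCAN, the matrix proteoglycan versican that itself binds hyaluronan, read 629 and 1824, 2.90-fold higher, and its 5 measured probe sets all lay between 1.23 and 1.97. Unlike CD44, versican was therefore higher by every measured probe set. HGF, the ligand of the receptor MET for which CD44 variants can act as co-receptor, was dim at 62.3 and 131, 2.10-fold higher, and under 2-fold after median scaling (0.98) or with a pseudocount of 16. SPP1, osteopontin, read 291 and 181, a log2 ratio of -0.68.

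Among other hyaluronan receptors, HMMR was bright and most were under the filter. Of 12 receptors and binding proteins 4 were measured, none changed 2-fold, and the median was -0.14. LYVE1, STAB2, LAYN, TLR2 and TLR4 were all under the filter. HABP4, which binds hyaluronan and RNA, had the largest difference, at 475 and 297, a log2 ratio of -0.68. HMMR, the receptor for hyaluronan-mediated motility that also acts at the mitotic spindle, read 7540 and 8628, a log2 ratio of 0.19.

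Among co-receptors and membrane partners, 1 of 9 measured genes was lower by 2-fold or more and none higher by that much, with a median of 0.16. SLC7A11, the cystine transporter subunit that CD44 variant forms are known to hold at the surface, read 1990 and 637, 3.12-fold lower, with 3 measured probe sets between -2.23 and -0.77. MET read 10868 and 15882, a log2 ratio of 0.55. CLDN7, a claudin known to associate with CD44 and EPCAM, read 4786 and 9280, 1.94-fold higher.

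All 14 genes of the cytoskeletal link were measured, 2 lower by 2-fold or more and none higher by that much, with a median of -0.12. NF2, encoding merlin, which binds the CD44 tail in competition with ezrin, read 1307 and 374, 3.50-fold lower, and its 6 measured probe sets ranged from -1.81 to -0.63. NHERF1, a scaffold that binds ezrin, read 1426 and 607, 2.35-fold lower by 1 probe set. The linkers themselves did not reach 2-fold. RDX (radixin) read 7991 and 15419, with its 4 probe sets between 0.89 and 0.97, EZR (ezrin) had a log2 ratio of 0.22 and MSN (moesin) one of 0.04.

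The list of proteases that cut CD44 at the cell surface, subunits of the γ-secretase complex that cuts it in the membrane, and the protease inhibitors TIMP1 and TIMP2 had 1 gene higher by 2-fold or more among 10 measured and none lower by that much, with a median of 0.55. ADAM17 read 2075 and 5947, 2.87-fold higher, with its 3 measured probe sets between 1.25 and 1.52. ADAM10, the other main CD44 sheddase, read 6535 and 5886, a log2 ratio of -0.15, but its 3 probe sets spanned -0.15 to 0.82. MMP14 read 135 and 215, with its measured probe sets at 0.67 and -1.27. The γ-secretase subunits measured lay between -0.33 and 0.64 by their brightest probe sets. However, the 2 measured probe sets of APH1B stood at 0.64 and 1.73, and the 3 of APH1A spanned -0.55 to 0.83. TIMP1 had a log2 ratio of 0.58 and TIMP2 one of 0.81.

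Of 20 measured regulators of CD44 exon choice, 12 had a ratio below 0 and 8 above 0, with 2 past 2-fold downward, none upward, and a list median of -0.51. The share past 2-fold downward is near the 8.53% of all measured genes. The SR protein SRSF1 read 16185 and 4415, 3.67-fold lower, though its 8 measured probe sets spanned -3.69 to 0.71. HNRNPM, which promotes skipping of CD44 variable exons, read 16415 and 6451, 2.54-fold lower, and its 3 probe sets ranged from -1.35 to 0.03, so that by their mean, at -0.87, it was under 2-fold. Several were just short of 2-fold. TRA2B, an activator of variable exon inclusion, stood at -0.99 with its 4 probe sets between -2.06 and -0.81. KHDRBS1 (Sam68) stood at -0.96 with another probe set at 0.46, and TRA2A at -0.94 with another at 0.83. SRSF3 was at -0.91, with its 5 measured probe sets from -2.96 to 1.06. ESRP1, the epithelial regulator that favours variable exons, read 4761 and 6138, a log2 ratio of 0.37. Of the 20 genes, 9 had measured probe sets on both sides of 0. Beside that, the 2 brightest probe sets alone had opposite signs in 28.8% of 6192 genes, and among the other 436 genes counted above for spread 70.4% had some on each side. After loess or quantile normalization 6 of the 20 regulators were lower by 2-fold or more, against 8.31% and 7.97% of all genes, and after median scaling 5, against 10.2%. Level on the hybridization controls it was 11, against 27.7%. By the mean of probe sets 3 were lower by 2-fold or more, against 7.84% of all genes, and the median was -0.24. Without _x_at and _s_at probe sets 2 were higher and 3 lower by that much, against 9.07% and 10.6% of all genes, with a median of -0.22.

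The genes next to CD44 on the chromosome did not share its higher readings at 2-fold. Of 3 protein-coding neighbours on each side, SLC1A2 and PAMR1 were under the filter. EHF read 11763 and 11288, PDHX 3172 and 3531, and APIP 3106 and 4054, log2 ratios of -0.06, 0.15 and 0.38. FJX1 read 615 and 322, a log2 ratio of -0.93, the largest of the 4.

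**Figure D4:**
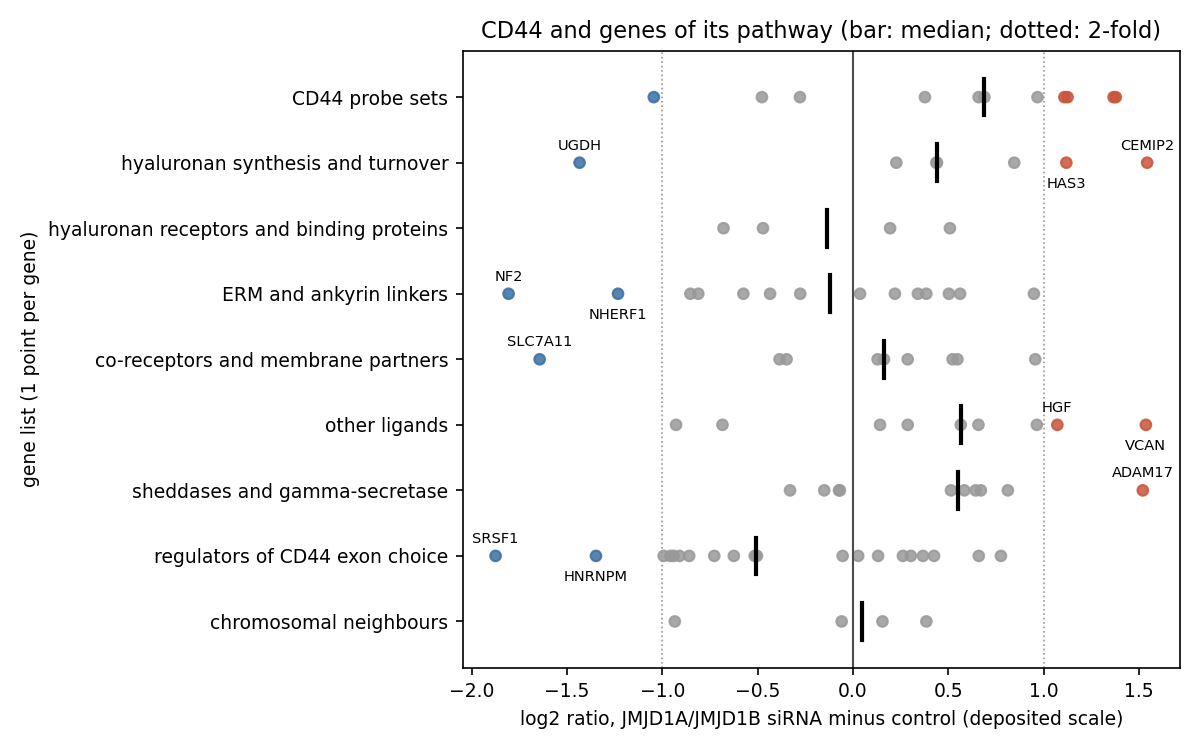
Log2 ratio (JMJD1A/JMJD1B siRNA minus control, deposited scale, horizontal axis) of the 11 measured CD44 probe sets in the top row and of the measured genes of 8 lists below, 1 point per gene by its brightest probe set, with the median as a bar and 2-fold as dotted lines. The CD44 row has 4 points beyond the upper and 1 beyond the lower 2-fold line, and the row of exon choice regulators has the lowest median, at -0.51.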

How the data were processed

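The authors deposited 1 table of linear signal intensity per probe set for both arrays, for which the submitters' processing notes name MAS5. Its version and its settings are not given in the sources used here. In general MAS5 subtracts local background, combines the probes of a set and scales each array by 1 factor. The mean after trimming 2% at each end was 500.1 on both arrays. Biotin-labelled RNA was made from 0.5 ug of total RNA, per the labels' protocols.

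Names came from the platform annotation, in which 41091 probe sets carried 1 symbol. Those with several symbols (1801) or none (11721) were left unnamed, and none of the former included CD44. Signals were log2-transformed without a pseudocount. A probe set counted as measured if its mean log2 signal reached the median of non-control probe sets, and each other gene was represented by its brightest probe set. Genes were named as follows. Each CD44 probe set was named. In each list each measured gene changed at least 2-fold was named, or the 1 with the largest difference, and further list members were added, after their values were seen, to give the roles. The 5 genes nearest CD44 in SD were named among those with 5 or more measured probe sets. CD44 and the lists were chosen with earlier results of these data known.

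With 1 array per group no test was run. Precision is limited by the number of arrays. Alternatives were 4 scalings (loess span 0.4), a pseudocount of 16, 3 filters, leaving out _x_at and _s_at probe sets, fold thresholds of 1.5 and 3, and the mean of probe sets. Python 3.11.15, numpy 2.4.6, pandas 2.3.3 and statsmodels 0.14.6 were used. Median scaling, loess and quantile normalization were tested on simulated data with a uniform shift between arrays. Few probe sets were changed there, as many higher as lower, so it cannot show which scaling suits the deposited arrays. Levelling on the hybridization controls was not tested in this way. Probe sequences and their exons were not used here.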

Additional observations from a re-analysis of the deposited data

How the results depend on the processing

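No paired analysis was possible because each group held 1 array. A value was taken as moved when it shifted by more than 0.54, the SD between probe sets, and a count when it differed by over 1.5 times. Level on the hybridization controls, the CD44 median was 0.078, with 0 probe sets past 2-fold upward and 2 downward, and the 77 list genes had 0 higher, 24 lower and a median of -0.46. Of all measured genes 2.15% were higher and 27.7% lower by 2-fold or more on that scale. Without _x_at and _s_at probe sets 4 CD44 probe sets were left, with a median of 0.049, 2 above 0, 0 at least 2-fold higher and a range of 1.70. With no signal filter the CD44 range was 3.60 over 13 probe sets, set by the dimmest, and the lists had 12 higher and 10 lower. At 1.5-fold 7 CD44 probe sets were higher and 1 lower, and 15 list genes were higher and 19 lower. At 3-fold no CD44 probe set was called in either direction (0 and 0), and 0 list genes were higher and 3 lower. Shares over all genes or probe sets are not given without the filter or at 1.5-fold and 3-fold. Nothing is therefore read from those counts of CD44 probe sets or list genes. The list genes at least 2-fold lower numbered 11 after median scaling and 10 after loess or quantile normalization. The shares of all measured genes were 10.2% after median scaling, 8.31% after loess and 7.97% after quantile normalization. Median scaling, loess, quantile normalization, the pseudocount, the filter at the 75th percentile and the filter on both arrays moved none of the CD44 counts or summaries by more than these limits. Within these limits, 212014_x_at lost its 2-fold call after loess and quantile normalization, which left 3 upward. No called CD44 probe set changed sign under any of the 5 scale alternatives. Signals near the filter limit the 216056_at and 234411_x_at ratios.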
